A study of Mus musculus with 12 samples.

Results

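Ptprc encodes CD45, the receptor tyrosine phosphatase that is used as the surface mark of nucleated blood cells. Its transcript was set here beside 7 other genes of most or all leucocytes, Laptm5, Coro1a, Lsp1, Cytip, Cd53, Cd37 and Ptpn6, in leukaemia cells sorted from mouse spleens. The members were chosen by name, with the low Ptprc level of the PBS group and higher levels of other leucocyte genes there already known. All 8 symbols were found among the 33531 listed in each file, and all 8 were among the 12167 genes whose RPKM averaged 1 or more over the libraries. RPKM scales reads by gene length and by the depth of the library, so levels can be compared between genes. Ptprc and Lsp1 passed that filter through the treated groups, since both were under 1 RPKM in every PBS library.

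CD45 removes the inhibitory phosphate from Src family kinases such as Lyn and Fgr, and so sets the threshold of signals from antigen and Fc receptors. Ptpn6 encodes SHP-1, a cytoplasmic phosphatase that acts against the same signals after it is recruited by inhibitory receptors. Cd37 and Cd53 are tetraspanins that organise proteins in the leucocyte membrane. Coro1a and Lsp1 bind actin filaments, Laptm5 is a lysosomal membrane protein that promotes the breakdown of antigen receptors, and Cytip binds the exchange factor cytohesin-1 and reduces integrin adhesion.

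The cells were the acute myeloid leukaemia line CMM-tetON-shStat3, which the series title describes as inv(16). It is marked by GFP and mCherry and holds a doxycycline-inducible hairpin against Stat3. It had been engrafted by vein in NSG mice, which lack T, B and NK cells but keep their own granulocytes, monocytes, macrophages and red cell precursors. There were 4 groups of 3 libraries. These were CpG1668+Dox (the DNA oligonucleotide CpG1668, a TLR9 ligand, with doxycycline), CpG1668 alone, Dox alone and PBS, all given intravenously once leukaemia cells reached about 1% of blood. The labels give 6 daily treatments in one place and 3 on alternate days in another. Spleens were taken 1 day after the last treatment and GFP-positive, mCherry-positive cells were sorted. Every group carried the hairpin and no group had doxycycline without it, so hairpin and drug cannot be told apart. Whether each library stands for its own mouse is not stated, so p-values measure the spread between libraries, which may be technical.

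The 12 libraries had estimated depths of 30460000 to 35040000 reads, and 11945 to 12454 genes per library reached 1 RPKM. Stat3, the target of the hairpin, was at 19.0 to 19.7 RPKM in CpG1668+Dox, 17.6 to 18.5 in CpG1668, 18.8 to 19.1 in Dox and 16.8 to 17.9 in PBS, so its transcript was not lower in libraries labelled Dox. In bulk samples, fewer cells of a type and less RNA per cell cannot be told apart.

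The sequence upstream of the start site is shown for 2 genes whose levels differed widely between groups (Ptprc and Cd53) and 2 that stayed within a narrow range (Laptm5 and Coro1a). The 250 bases before a RefSeq start site (GRCm38.p6) are given 5′ to 3′ on the gene's own strand, in lower case, with 3 motifs in capitals on either strand. These are GAGGAA (or TTCCTC), a motif bound by ETS factors such as Spi1, AGATAA (or TTATCT), bound by GATA factors, and TGTGGT (or ACCACA), bound by the RUNX proteins that pair with Cbfb. Other sequences bound by ETS factors were not searched for.
Ptprc, chr1:138175306-138175555, minus strand: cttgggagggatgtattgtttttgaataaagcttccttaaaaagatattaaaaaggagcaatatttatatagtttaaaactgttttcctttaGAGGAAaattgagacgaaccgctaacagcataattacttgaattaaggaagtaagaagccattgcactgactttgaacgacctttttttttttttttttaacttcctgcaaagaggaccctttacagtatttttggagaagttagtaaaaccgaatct
Cd53, chr3:106790150-106790399, minus strand: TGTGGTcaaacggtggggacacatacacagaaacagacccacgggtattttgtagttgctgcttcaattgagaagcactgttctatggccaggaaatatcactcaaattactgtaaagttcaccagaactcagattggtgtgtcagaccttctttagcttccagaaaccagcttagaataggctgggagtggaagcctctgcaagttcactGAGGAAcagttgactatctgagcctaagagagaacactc
Laptm5, chr4:130913066-130913315, plus strand: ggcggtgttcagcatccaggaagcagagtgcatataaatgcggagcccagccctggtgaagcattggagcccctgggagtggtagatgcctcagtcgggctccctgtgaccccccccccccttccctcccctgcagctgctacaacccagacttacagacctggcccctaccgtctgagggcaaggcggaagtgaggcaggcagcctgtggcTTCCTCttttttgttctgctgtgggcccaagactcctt
Coro1a, chr7:126704817-126705066, minus strand: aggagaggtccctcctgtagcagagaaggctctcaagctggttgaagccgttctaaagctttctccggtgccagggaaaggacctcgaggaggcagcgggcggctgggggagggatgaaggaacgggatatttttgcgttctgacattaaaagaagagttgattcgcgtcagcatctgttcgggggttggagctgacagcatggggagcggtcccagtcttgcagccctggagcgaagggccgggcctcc

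The RefSeq table held 9 windows for 7 of the members, and the motif GAGGAA stood in 5 of the 9, against 23.4% of 32536 such windows of all genes. It was in the first window of Ptprc and in those of Cytip, Cd53, Laptm5 and Cd37, and it was not in the second window of Ptprc, that of Ptpn6 or either of Coro1a. The GATA motif was found in the window of a second Ptprc start site alone, against 9.97% of all windows, and the RUNX motif in Cytip and Cd53, against 14.0%. The motif GAGGAA was present in genes called between treated groups (Ptprc, Cytip and Cd53) and in genes not called there (Laptm5 and Cd37). A match is a description of letters only, and a window without GAGGAA may hold other sequences bound by ETS factors.

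Ptprc (ENSMUSG00000026395.16, chromosome 1, 138062861 to 138175708, minus strand) was lowest in PBS and highest after both agents. It was at 3.95, 3.25 and 4.60 RPKM in CpG1668+Dox, 2.19, 1.92 and 2.11 in CpG1668, 1.44, 2.07 and 1.80 in Dox, and 0.429, 0.742 and 0.650 in PBS. Every CpG1668+Dox library lay above every library of the single-agent groups, and those above every PBS library, while CpG1668 and Dox overlapped. For a coding transcript of 5074 bases, the levels stand for at least 559 reads in each CpG1668+Dox library and about 71 to 121 in each PBS library, so the transcript was low in PBS and not at the limit of detection. The group means were 3.94 ± 0.678 in CpG1668+Dox, 2.07 ± 0.135 in CpG1668, 1.77 ± 0.316 in Dox and 0.607 ± 0.161 in PBS (SD, n = 3 each). The summed level of 20 monocyte marker genes was also highest in CpG1668+Dox (366 to 516 RPKM) and lowest in PBS (47.1 to 71.5), and its part in the Ptprc level was not tested.

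As ratios of means, Ptprc was 6.48-fold higher in CpG1668+Dox than in PBS, 3.41-fold higher in CpG1668 and 2.92-fold higher in Dox. These are descriptions without a test, since the PBS level chose the gene. Between treated groups, Ptprc rose in CpG1668+Dox over CpG1668 by 0.68 on the log2(RPKM + 1) scale (SE 0.11, adjusted p = 0.0096), a 1.90-fold ratio of means. It also rose over Dox, by 0.83 (SE 0.11, adjusted p = 0.0015), a 2.22-fold ratio. Both contrasts share the CpG1668+Dox libraries. CpG1668 and Dox differed by 0.15 (adjusted p = 0.575), with a 95% interval of -0.10 to 0.40. On the log2(RPKM + 1) scale the value in CpG1668+Dox departed from the sum of the single-agent changes by -0.11 (SE 0.16, not tested because PBS enters it).

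The low level in PBS was not shared by all leucocyte genes, but Ptprc was not alone in it. Lsp1 and Cd53 lay near it in PBS, Cd37 and Cytip lay between 3.66 and 5.12 RPKM, and Ptpn6, Laptm5 and Coro1a were already abundant. Among the 12167 genes, the mean level of Ptprc stood at percentile 30.1 in CpG1668+Dox, 14.8 in CpG1668, 11.5 in Dox and 1.04 in PBS. Coro1a stood at percentile 97.6 in CpG1668+Dox and 97.5 in PBS. The PBS levels chose these genes, so their order there is a description and not a finding, and Lsp1 and Cd53 were not among the genes already high in PBS.

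**Figure D1:**
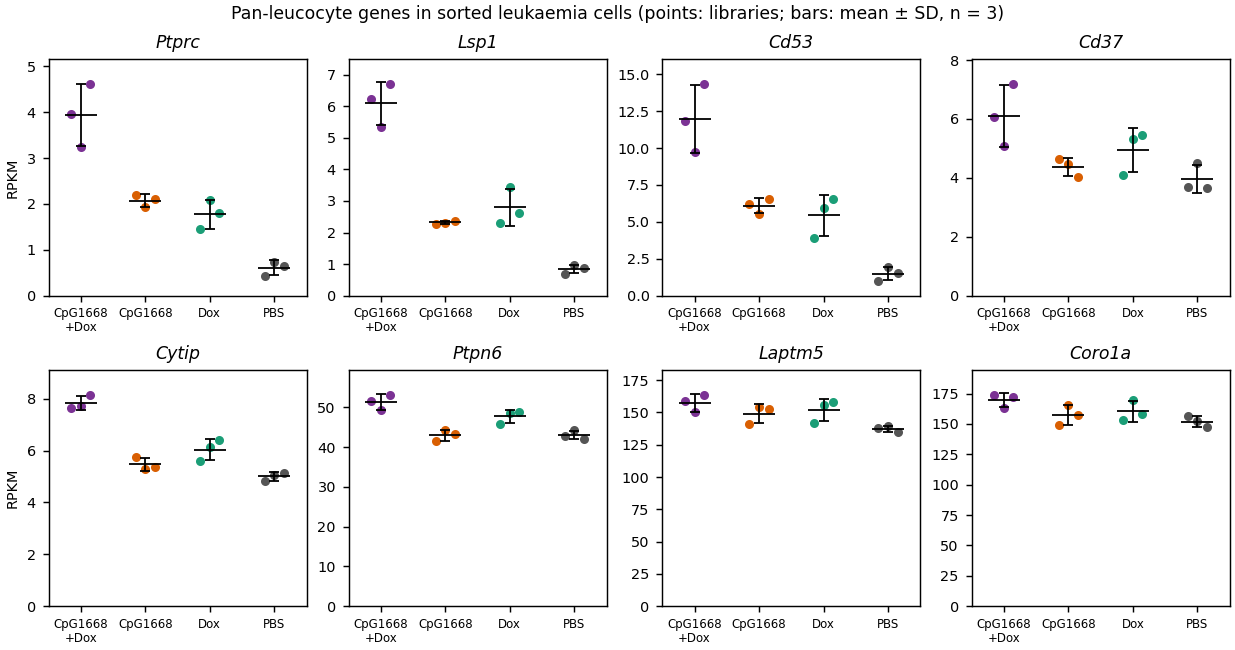
RPKM of each library (points) with the group mean and SD (n = 3) for the 8 genes, on axes that start at 0. Ptprc, Lsp1 and Cd53 sit lowest in PBS and highest in CpG1668+Dox, while Laptm5 stays between 135 and 164 RPKM and Coro1a between 148 and 174.

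Lsp1, an F-actin binding protein of leucocytes (ENSMUSG00000018819.10, chromosome 7, 142460809 to 142494867, plus strand), followed the same order of CpG1668+Dox above both single agents above PBS. It was at 6.24, 5.35 and 6.70 RPKM in CpG1668+Dox, 2.28, 2.30 and 2.38 in CpG1668, 2.31, 3.44 and 2.63 in Dox, and 0.686, 0.958 and 0.886 in PBS. CpG1668+Dox and PBS each stood clear of the other 3 groups, and CpG1668 and Dox overlapped. Lsp1 rose in CpG1668+Dox by 1.09 over CpG1668 (SE 0.10, adjusted p = 0.0015) and by 0.91 over Dox (SE 0.10, adjusted p = 5.6e-04). The ratio of means to PBS was 7.22 in CpG1668+Dox, 2.75 in CpG1668 and 3.32 in Dox.

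Cd53, a tetraspanin of most leucocytes (ENSMUSG00000040747.9, chromosome 3, 106759921 to 106790149, minus strand), had the largest ratio to PBS of the 8. It was at 11.9, 9.70 and 14.3 RPKM in CpG1668+Dox, 6.18, 5.54 and 6.53 in CpG1668, 3.90, 5.92 and 6.51 in Dox, and 1.02, 1.93 and 1.51 in PBS. CpG1668+Dox and PBS again stood clear of the other groups, whose ranges overlapped each other. The ratio of means to PBS was 8.04 in CpG1668+Dox, 4.09 in CpG1668 and 3.66 in Dox. Cd53 rose in CpG1668+Dox by 1.02 over Dox (SE 0.18, adjusted p = 0.0076) and by 0.86 over CpG1668 (SE 0.18, adjusted p = 0.026). The second call was lost without CpG1668+Dox 1 (adjusted p = 0.089), CpG1668+Dox 3 (0.111), CpG1668 1 (0.087), CpG1668 2 (0.10) or CpG1668 3 (0.054), and the first in a fit of those groups only (0.053).

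Cd37, the other tetraspanin (ENSMUSG00000030798.15, chromosome 7, 45233632 to 45239115, minus strand), did not share that range. It was at 6.06, 5.07 and 7.17 RPKM in CpG1668+Dox, 4.62, 4.47 and 4.02 in CpG1668, 4.08, 5.32 and 5.44 in Dox, and 3.69, 4.52 and 3.66 in PBS. CpG1668+Dox exceeded CpG1668 and PBS without overlap, and all other pairs of groups overlapped. Cd37 was not called in CpG1668+Dox against CpG1668 (0.39, adjusted p = 0.106) or against Dox (0.25, adjusted p = 0.374). The first had an adjusted p of 0.038 without CpG1668+Dox 2.

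Cytip (ENSMUSG00000026832.12, chromosome 2, 58129137 to 58195532, minus strand) had narrow ranges and differed by smaller ratios. It was at 7.65, 7.71 and 8.14 RPKM in CpG1668+Dox, 5.75, 5.31 and 5.36 in CpG1668, 5.58, 6.13 and 6.39 in Dox, and 4.81, 5.06 and 5.12 in PBS. The CpG1668 and Dox ranges overlapped, and CpG1668+Dox lay above both and PBS below both. It rose in CpG1668+Dox by 0.45 over CpG1668 (SE 0.05, adjusted p = 0.0019) and by 0.33 over Dox (SE 0.05, adjusted p = 0.0027), which are ratios of means of 1.43 and 1.30.

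The 3 abundant members differed little in ratio. Ptpn6 (ENSMUSG00000004266.15, chromosome 6, 124720707 to 124738714, minus strand) was at 51.7, 49.2 and 53.1 RPKM in CpG1668+Dox, 41.5, 44.2 and 43.2 in CpG1668, 45.9, 48.7 and 48.8 in Dox, and 42.9, 44.2 and 42.1 in PBS. It rose in CpG1668+Dox over CpG1668 by 0.25 (SE 0.04, adjusted p = 0.0081), a 1.19-fold ratio, and was not called over Dox (0.10, adjusted p = 0.272). CpG1668 and PBS overlapped, and each lay below both groups that received doxycycline. Exons of Ptpn6 overlap the antisense gene Gm20531, which reached 0.234 RPKM, and those of Cd37 overlap Tead2, which reached 0.031.

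Laptm5 (ENSMUSG00000028581.17, chromosome 4, 130913125 to 130936141, plus strand) was at 159, 150.2 and 164 RPKM in CpG1668+Dox, 141, 154 and 152 in CpG1668, 142, 156 and 158 in Dox, and 138, 139 and 135 in PBS. The 3 treated groups overlapped each other and lay above PBS, with ratios of means to PBS of 1.15 in CpG1668+Dox, 1.09 in CpG1668 and 1.11 in Dox. Coro1a (ENSMUSG00000030707.15, chromosome 7, 126699773 to 126707787, minus strand) was at 174, 163 and 172 RPKM in CpG1668+Dox, 149.5, 166 and 157 in CpG1668, 153, 169 and 158 in Dox, and 156, 152 and 148 in PBS. Of its group pairs, CpG1668+Dox and PBS alone did not overlap. Exons of Coro1a overlap those of Bola2 on the other strand, which reached 8.12 RPKM, and the strand setting of the counts is not given in the sources used here. Neither gene was called in a contrast of treated groups, with changes of 0.08 (adjusted p = 0.528) for Laptm5 and 0.11 (adjusted p = 0.320) for Coro1a in CpG1668+Dox against CpG1668. The 95% intervals of these changes were -0.03 to 0.19 and 0.0011 to 0.22.

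Because both genes come from one library, the ratio of Ptprc to Laptm5 does not depend on scaling between libraries. Ptprc amounted to 2.16% to 2.82% of the Laptm5 level in CpG1668+Dox, 1.25% to 1.55% in CpG1668, 1.02% to 1.33% in Dox and 0.312% to 0.534% in PBS. The order of the groups was that of the Ptprc levels, again with overlap between CpG1668 and Dox alone. Lsp1 amounted to 3.56% to 4.10% of Laptm5 in CpG1668+Dox and 0.498% to 0.689% in PBS, whereas Cytip amounted to 4.83% to 5.13% in CpG1668+Dox and 3.49% to 3.80% in PBS.

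Counted over the members, 5 of 8 rose in CpG1668+Dox over CpG1668 and none fell, with a median change of 0.42, against 3.26% of all genes called (3.07% higher and 0.197% lower) and a median of 0.02 over all genes. In CpG1668+Dox against Dox, 4 of 8 rose and none fell, with a median of 0.29, against 3.48% of all genes called (2.81% higher and 0.666% lower) and a median of -0.01. Between CpG1668 and Dox, limma called 0 of 8, against 1.56% of all genes (0.353% higher and 1.21% lower), and 2 of the 8 (Cytip and Ptpn6) had an unadjusted p under 0.05. Ptpn6 had the smallest p of that contrast (-0.15, adjusted p = 0.094), with all 3 Dox libraries above all 3 CpG1668 libraries.

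**Figure D2:**
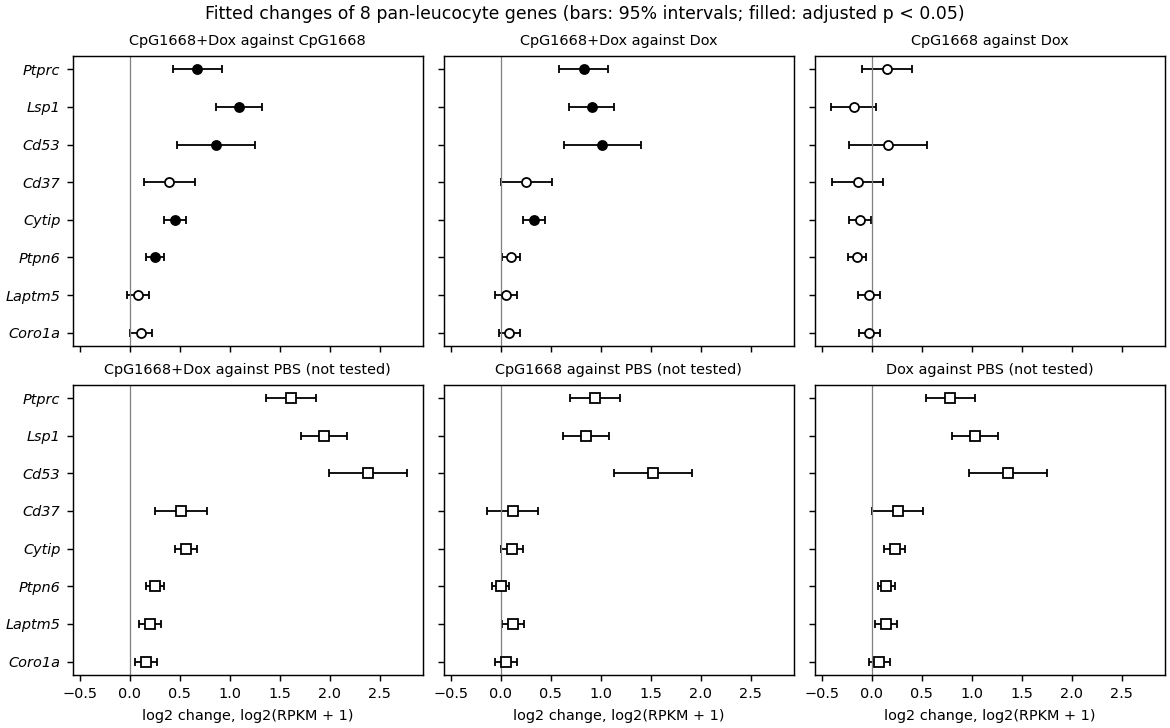
Fitted log2 changes of the 8 genes with 95% intervals in 6 contrasts. Circles are tested contrasts, filled where the adjusted p was under 0.05, and squares are contrasts with PBS, shown without a test. Ptprc, Lsp1, Cd53 and Cytip are filled in both contrasts of CpG1668+Dox with a single agent, and no gene is filled in CpG1668 against Dox.

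Other genes of most or all leucocytes were taken from a list of 40, of which 39 passed the filter. In CpG1668+Dox, 21 rose and 1 (Ptpn7) fell against PBS, with a median change of 0.19, while 15.5% of all genes were called (9.13% higher and 6.4% lower) and their median was 0.0028. In CpG1668, 7 rose and none fell against PBS, with 5.88% of all genes called (3.06% higher and 2.83% lower). In Dox 7 rose and 1 (Ucp2) fell against PBS, with 5.98% called (3.95% higher and 2.04% lower). In CpG1668+Dox, 9 rose over CpG1668 and 12 over Dox, and none fell in either, where 3.26% and 3.48% of all genes were called. Il10ra and Evl were higher in CpG1668 than in Dox and none was lower, where 1.56% of all genes were called. These counts rested on single libraries in part, with 4 to 11 called over CpG1668, 4 to 13 over Dox, and 1 to 9 in Dox against PBS when each library was left out.

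Cd52, Evl and Traf3ip3 were as low in PBS as the low members, and Traf3ip3 is named after its values were seen. Since that level groups them here, their changes against PBS are descriptions without a test. Cd52 and Evl are among the genes counted above as higher than PBS in each treated group, and their place in those counts is no support. Cd52, a small glycoprotein anchored in the leucocyte membrane, was at 14.0, 11.7 and 21.8 RPKM in CpG1668+Dox. It was at 1.16 to 1.64 in the 3 PBS libraries, a fitted change of 2.73. The actin regulator Evl was at 3.38, 2.79 and 3.55 RPKM in CpG1668+Dox, 1.85, 1.81 and 1.83 in CpG1668, 0.830, 1.23 and 0.798 in Dox, and 0.229, 0.626 and 0.287 in PBS. For Evl no pair of groups overlapped, and its fitted value was higher in CpG1668+Dox than in PBS by 1.62. Traf3ip3 was below the filter, at 1.18 ± 0.320 RPKM in CpG1668+Dox and 0.118 ± 0.00593 in PBS (SD, n = 3 each).

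Itgb2, the beta chain of the leucocyte integrins, was at 27.3, 22.2 and 31.4 RPKM in CpG1668+Dox, against 6.83, 8.46 and 7.50 in PBS, and rose by 1.69 (adjusted p = 6.6e-06). In CpG1668+Dox against CpG1668, the largest moderated t values of the list belonged to Itgb2 (0.90, adjusted p = 0.0066), Evi2a (0.47, adjusted p = 0.0077) and Cd52 (1.28, adjusted p = 0.0087). Against Dox they belonged to Evl (1.12, adjusted p = 3.4e-04), Itgb2 (1.00, adjusted p = 0.0014) and the receptor gene Il10ra (0.53, adjusted p = 0.0015). At the abundant end of the list, Ptprcap, whose protein associates with CD45 in lymphocytes, was at 32.0 ± 1.18 RPKM in CpG1668+Dox and 31.0 ± 0.824 in PBS (SD, n = 3 each), and was not called in the 6 contrasts. Arhgdib, also named after its values were seen, was at 281 ± 19.8 RPKM in CpG1668+Dox and 234 ± 5.82 in PBS (0.26, adjusted p = 0.0056).

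**Figure D3:**
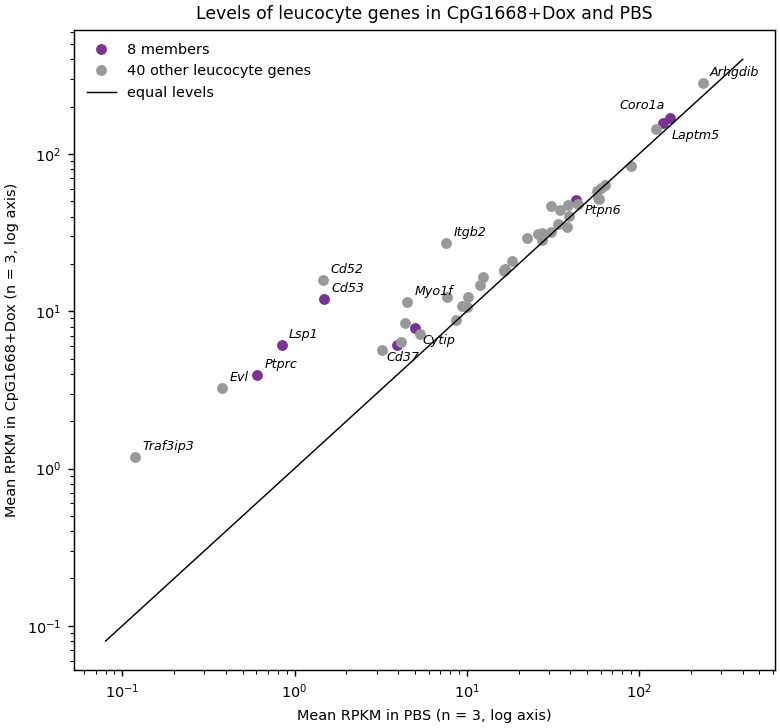
Mean RPKM in CpG1668+Dox (vertical, log axis) against mean RPKM in PBS (horizontal, log axis), n = 3 each, for the 8 members and 40 other leucocyte genes, with a line of equal levels. Genes low in PBS such as Ptprc (3.94 and 0.607), Cd53, Cd52 and Evl lie above the line, and abundant genes such as Coro1a and Arhgdib lie close to it.

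Among 25 tested genes of CD45 signalling (Src family kinases, their partners and regulators of Ptprc splicing), 10 rose and 1 (Dok2) fell in CpG1668+Dox against PBS, and 7 rose over CpG1668 and 7 over Dox with none lower. The shares of all genes called in these contrasts were 15.5%, 3.26% and 3.48%. The count over CpG1668 was 3 without CpG1668+Dox 1 or CpG1668 1 and 2 without CpG1668+Dox 3 or CpG1668 2. In CpG1668 against PBS 6 rose and Fyn fell, where 5.88% of all genes were called. In Dox against PBS, where 5.98% were called, 7 rose and none fell (3 without Dox 2 or Dox 3, and 4 without PBS 1 or PBS 3). The myeloid Src family kinase Fgr was at 5.63 ± 1.10 in CpG1668+Dox, against 0.880 ± 0.288 in PBS (1.82, adjusted p = 5.9e-06; SD, n = 3 each). Lyn, a more abundant kinase of that family, was at 39.1 ± 1.00 in CpG1668+Dox and 34.9 ± 0.948 in PBS (0.16, adjusted p = 0.0091). Lgals1, which encodes galectin-1, a lectin that binds CD45 on T cells, rose by 2.75 (adjusted p = 6.0e-07). Lgals1 was higher (0.74, adjusted p = 0.036) and Fyn lower (-0.25, adjusted p = 0.015) in CpG1668 than in Dox, where 1.56% of all genes were called. Neither was called without CpG1668 1, CpG1668 3 or Dox 2. Csk, which places the inhibitory phosphate that CD45 removes, was at 41.6 ± 1.36 RPKM in CpG1668+Dox and 41.6 ± 1.69 in PBS. Hnrnpll, which excludes variable exons of Ptprc, was at 7.40 ± 0.185 in CpG1668+Dox and 7.19 ± 0.205 in PBS, and neither was called. Csk and Hnrnpll are named after their values were seen, and one value per gene cannot show which Ptprc isoforms were made.

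Inhibitory receptors that recruit SHP-1 were listed with its paralogue. Of 25 listed genes 24 were found and 11 passed the filter. Of these, 10 rose in CpG1668+Dox against PBS, 8 in CpG1668 and 7 in Dox, and none fell, where 15.5%, 5.88% and 5.98% of all genes were called. Over CpG1668, 7 rose in CpG1668+Dox, and over Dox 9 rose, where 3.26% and 3.48% of all genes were called. Milr1, Cd300a and Ceacam1 averaged under 1 RPKM over the other 3 groups and passed the filter through CpG1668+Dox, so their place in these counts is no support. The count over CpG1668 was 3 or 4 without any 1 of the CpG1668 libraries, CpG1668+Dox 1 or CpG1668+Dox 3. Against PBS it was 4 or 5 in CpG1668 without CpG1668 2, CpG1668 3 or PBS 1, and 3 or 4 in Dox without Dox 2 or any 1 of the PBS libraries. Between CpG1668 and Dox limma called 0 of 11, near the 1.56% of all genes called there, and 1 had an unadjusted p under 0.05. Milr1, an inhibitory receptor of mast cells, was at 2.56, 2.12 and 2.57 RPKM in CpG1668+Dox, against 0.136, 0.328 and 0.223 in PBS. These values are a description only, since the gene passed the filter through CpG1668+Dox. Pilra (1.59, adjusted p = 5.1e-06) and the lectin receptor Clec4a2 (1.86, adjusted p = 7.2e-06) rose in CpG1668+Dox against PBS. The paralogue of Ptpn6, Ptpn11, which encodes SHP-2, is named after its values were seen. It was at 11.8 ± 0.472 RPKM in CpG1668+Dox and 10.8 ± 0.181 in PBS (SD, n = 3 each) and was not called.

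Relatives of the members were counted in the same way. Of 14 other tetraspanins tested, Cd9 and Tspan14 rose in CpG1668+Dox against PBS (1.01, adjusted p = 6.6e-04, and 0.16, adjusted p = 0.032) and none fell, a share near the 15.5% of all genes called there. The count was 1 without CpG1668+Dox 3, PBS 1 or PBS 3 and 4 without CpG1668+Dox 2. Cd9 also rose over CpG1668 (0.85, adjusted p = 0.010) and in Dox over PBS (0.73, adjusted p = 0.014), and Tspan13 was lower in CpG1668 than in Dox (-0.18, adjusted p = 0.033). Of all genes 3.26%, 5.98% and 1.56% were called in these contrasts, and a single call of 14 cannot be told from such shares. These single calls rested on few libraries. None was left over CpG1668 without CpG1668+Dox 1, CpG1668+Dox 3 or CpG1668 2, none in Dox against PBS without Dox 2, Dox 3 or PBS 3, and none between CpG1668 and Dox without CpG1668+Dox 1, Dox 2, Dox 3 or any 1 of the CpG1668 libraries. The count was 2 over CpG1668 without CpG1668+Dox 2, 2 in Dox against PBS without CpG1668+Dox 3, and 2 between CpG1668 and Dox without CpG1668+Dox 2 or Dox 1. In the other 2 contrasts (CpG1668+Dox against Dox and CpG1668 against PBS) limma called 0 of 14, with an unadjusted p under 0.05 for 1 and 2 genes. Of all genes 3.48% and 5.88% were called there, so 0 of 14 was near the background. Of 18 tested coronins, LAPTM genes, cytohesins and actin partners, 7 rose in CpG1668+Dox against PBS, 1 in CpG1668 and 1 in Dox, and 3 rose over CpG1668 and 2 over Dox. The shares of all genes called were 15.5%, 5.88%, 5.98%, 3.26% and 3.48%, so the counts in CpG1668 and in Dox against PBS were near the background. The 7 were 4 without CpG1668+Dox 3 or PBS 3. The 3 were 1 without CpG1668+Dox 1, CpG1668+Dox 3, CpG1668 1 or CpG1668 3. The 2 were 1 without any 1 of 10 of the 12 libraries, the exceptions being CpG1668+Dox 2 and Dox 3, and the count in Dox against PBS was 2 without Dox 1. None fell, and limma called 0 in CpG1668 against Dox, where 1.56% of all genes were called and 0 of these 18 had an unadjusted p under 0.05. Mapkapk2, whose kinase phosphorylates Lsp1, was at 24.4, 23.1 and 25.8 RPKM in CpG1668+Dox, against 15.5, 14.4 and 14.3 in PBS (0.69, adjusted p = 2.8e-06). Cyth4, a cytohesin of leucocytes, was at 7.26 ± 0.466 in CpG1668+Dox and 4.76 ± 0.134 in PBS (0.52, adjusted p = 2.7e-04; SD, n = 3 each).

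Genes with a pattern like that of Ptprc were ranked by the root mean square difference over the 12 libraries, after centring the log2(RPKM + 1) values of each gene. The 6 nearest of 12166, leaving out predicted genes, were Kctd12 (0.083), Tlr13 (0.085), Cebpb (0.091), Tpm4 (0.092), Ctsh (0.094) and Cd93 (0.099), where the median gene differed by 0.593. Tlr13 encodes an endosomal receptor for bacterial RNA, Cebpb a myeloid transcription factor, Ctsh a lysosomal protease and Cd93 a receptor of early progenitors and monocytes. Tlr13 was at 2.98 ± 0.405 RPKM in CpG1668+Dox, 1.46 ± 0.166 in CpG1668, 1.37 ± 0.255 in Dox and 0.393 ± 0.106 in PBS (SD, n = 3 each). Of the members, Lsp1 ranked 65, Cd53 179, Cytip 292, Cd37 306, Ptpn6 797, Laptm5 896 and Coro1a 1314. The measure weighs size as well as shape, and the changes of Cd53 against PBS were larger than those of Ptprc.

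**Figure D4:**
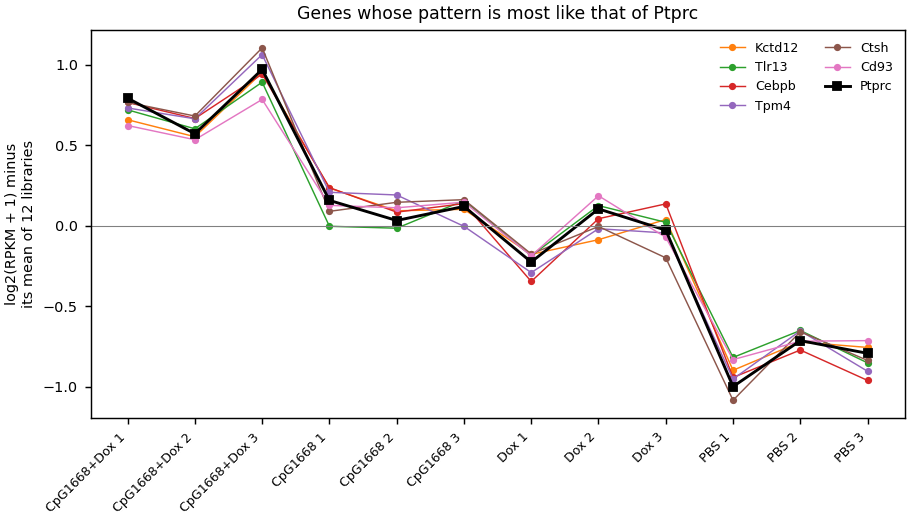
The log2(RPKM + 1) value of each library minus the mean of the 12, for Ptprc (black squares) and the 6 nearest genes. All 7 lines are highest in the 3 CpG1668+Dox libraries and lowest in the 3 PBS libraries.

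Genes used as markers of blood cell types moved with the same groups. Whether their transcripts came from the leukaemia cells or from host cells cannot be told apart in these bulk samples. The summed level of 15 late neutrophil genes, led by S100a9, S100a8 and Ngp, was 1753 to 4599 RPKM in CpG1668+Dox, 656 to 855 in CpG1668, 589 to 2342 in Dox and 109 to 223 in PBS. Of these, 15 were called higher in CpG1668+Dox against PBS, 10 in CpG1668 and 14 in Dox, and 15 were called over CpG1668 but 1 (Chil3) over Dox. All 15 changes over Dox were positive, with a median of 1.10, and 13 genes had an unadjusted p under 0.05 in the limma fit. The shares of all genes called in these contrasts were 15.5%, 5.88%, 5.98%, 3.26% and 3.48%. The calls over CpG1668 rested on single libraries, with 0 of 15 called without CpG1668+Dox 1, CpG1668+Dox 3, CpG1668 1 or CpG1668 2 and 5 without CpG1668 3. The count over Dox was 9 without Dox 3, and that in CpG1668 against PBS was 1 without CpG1668 1, CpG1668 3, PBS 1 or PBS 3 and 3 without CpG1668 2. The summed level of 20 monocyte genes, led by Lyz2, Ctss and Mpeg1, was 366 to 516 RPKM in CpG1668+Dox, 184 to 206 in CpG1668, 143 to 223 in Dox and 47.1 to 71.5 in PBS. Of 17 tested, 16 rose in CpG1668+Dox against PBS, 15 in CpG1668 and 15 in Dox, beside the shares of all genes just given. Over each single agent 15 monocyte genes rose, and 5 were higher in CpG1668 than in Dox, where 1.56% of all genes were called. The count over CpG1668 was 6 to 8 without CpG1668+Dox 1, CpG1668+Dox 3 or any 1 of the CpG1668 libraries, and that between CpG1668 and Dox was 1 without CpG1668 1 and 3 without CpG1668 2, CpG1668 3, Dox 1 or Dox 3. Within CpG1668+Dox, Dox and PBS the libraries had the same order for Ptprc and for the monocyte sum, and within CpG1668+Dox and PBS also for the late neutrophil sum. Within CpG1668 neither order was that of Ptprc. The erythroid sum, which was highest in PBS between groups, had the order of Ptprc within PBS too. Of the genes counted above, Stfa2l1, Vcan and Cx3cr1 averaged under 1 RPKM outside CpG1668+Dox and passed the filter through it. Their place in these counts is therefore no support. Any part of such cells in the level of Ptprc and the other members was not tested.

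The summed level of 15 erythroid genes, led by Hbb-bs, Hba-a1 and Hbb-bt, ran the other way, at 2752 to 4615 RPKM in CpG1668+Dox, 4728 to 7645 in CpG1668, 2875 to 5772 in Dox and 10723 to 14229 in PBS. Of these, 13 fell in CpG1668+Dox against PBS, 4 in CpG1668 and 7 in Dox, and 1 (Car2) fell in CpG1668+Dox against Dox. The shares of all genes called in these contrasts were 15.5%, 5.88%, 5.98% and 3.48%. The part of the erythroid genes in the Ptprc level was not tested. The count in CpG1668 was 1 without any 1 of the CpG1668 libraries, PBS 2 or PBS 3, and 2 without PBS 1 or Dox 3. Mast cell and basophil genes, led by Fcer1a, Cpa3 and Ms4a2, were abundant in all groups, at sums of 1550 to 1595 RPKM in CpG1668+Dox, 1269 to 1359 in CpG1668, 1370 to 1719 in Dox and 1251 to 1422 in PBS. Of 9 tested, 3 rose in CpG1668+Dox against PBS, 3 over CpG1668 and 1 over Dox, 1 (Hdc) was lower in CpG1668 than in Dox, and limma called 0 in CpG1668 and 0 in Dox against PBS, with an unadjusted p under 0.05 for 3 and 5 genes. Of all genes 3.26% were called over CpG1668 and 1.56% between CpG1668 and Dox, with the other shares as for the erythroid genes. The 3 mast cell and basophil calls over CpG1668 were 0 without CpG1668+Dox 3, CpG1668 1 or CpG1668 2 and 1 without CpG1668+Dox 1. The count over Dox was 0 without CpG1668+Dox 2, CpG1668+Dox 3, Dox 1 or Dox 2 and 2 without Dox 3. Hdc was the only call between CpG1668 and Dox, where the count was 0 without CpG1668+Dox 1, CpG1668 1, CpG1668 3, Dox 2 or Dox 3 and 3 without Dox 1. Without Dox 1 the counts against PBS were 1 in CpG1668 and 3 in Dox. Mcpt8 and Prss34 passed the filter through CpG1668+Dox, so their place in these counts is no support.

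Markers of lymphocytes, which carry much CD45, were measured too. The 10 B cell genes summed to 1.12 to 1.47 RPKM in CpG1668+Dox, 0.802 to 1.12 in CpG1668, 0.437 to 0.867 in Dox and 0.357 to 0.593 in PBS, and none passed the filter. This sum was higher in every CpG1668+Dox library than in any PBS library, and any part of such cells in the Ptprc level was not tested. The 14 T and NK cell genes summed to 13.6 to 23.7 RPKM in CpG1668+Dox and 12.2 to 17.6 in PBS, with Nkg7 alone passing the filter and not called. Splenic macrophage genes summed to 33.7 to 53.8 RPKM in CpG1668+Dox and 19.1 to 33.4 in PBS, and Adgre1 was the single one of 9 called, in 5 of the 6 contrasts (1.83 in CpG1668+Dox against PBS, adjusted p = 5.1e-06). Of all genes 15.5% were called in CpG1668+Dox against PBS, so 1 of 9 there was near the background. The shares were 5.88% and 5.98% in CpG1668 and Dox against PBS, 3.26% over CpG1668 and 3.48% over Dox. The macrophage count over CpG1668 was 0 without CpG1668+Dox 1, CpG1668+Dox 3, CpG1668 1 or CpG1668 2. In Dox against PBS it was 0 without CpG1668+Dox 1, CpG1668 1, Dox 2, Dox 3, PBS 1 or PBS 3. In CpG1668+Dox against PBS it was 5 without PBS 2 and 3 without CpG1668+Dox 2. Without PBS 2 it was 2 in CpG1668 against PBS and 1 between CpG1668 and Dox, and over Dox it was 2 without CpG1668+Dox 3. Dendritic cell genes summed to 53.5 to 61.1 RPKM in CpG1668+Dox, 44.4 to 49.2 in CpG1668, 61.0 to 85.2 in Dox and 45.4 to 55.9 in PBS. Of 5 tested, 4 genes of MHC class II (H2-Aa, H2-Ab1, H2-Eb1 and the invariant chain gene Cd74) were higher in Dox than in PBS, the same number were lower in CpG1668 than in Dox, and 2 were lower in CpG1668+Dox than in Dox, a count that was 0 without CpG1668+Dox 1, CpG1668+Dox 2, Dox 1 or Dox 2, 1 without CpG1668+Dox 3 and 4 without Dox 3. The shares of all genes called in those contrasts were 5.98%, 1.56% and 3.48%. The dendritic count in Dox against PBS was 2 without Dox 2, and that between CpG1668 and Dox was 2 without CpG1668 1. In CpG1668+Dox against CpG1668, 2 were called without Dox 3. Megakaryocyte genes (139 to 149 RPKM in CpG1668+Dox and 152 to 175 in PBS) and stroma and endothelium genes (9.34 to 10.4 in CpG1668+Dox and 8.44 to 9.82 in PBS) had 3 and 2 tested members and none called. Between 1.56% and 15.5% of all genes were called in the 6 contrasts, so no call among so few genes was near the background. The megakaryocyte count was 1 over CpG1668 without CpG1668 3. In CpG1668+Dox against PBS that count was 1 without CpG1668 3 or PBS 2.

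**Figure D5:**
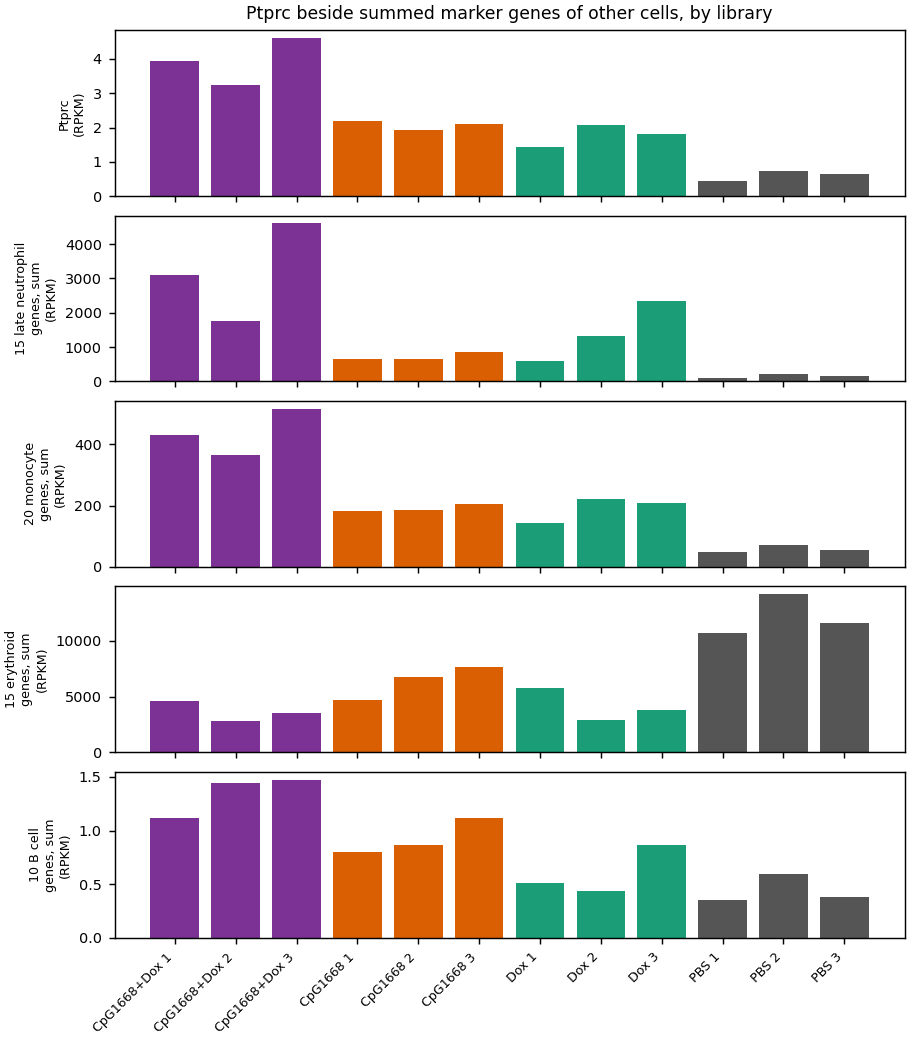
Level of Ptprc and summed levels of marker genes in each of the 12 libraries, in RPKM on axes that start at 0. Ptprc, late neutrophil and monocyte genes are lowest in PBS and erythroid genes are highest there, and the B cell sum stays between 0.357 and 1.47 RPKM.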

How the data were processed

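RPKM values were deposited by the authors as 1 file per library, each with 33531 gene symbols. Per the submitters' processing notes, the tools were STAR 2.7.9 and Partek 7.18.0723 and the build was mm10, with no role stated. For annotation, filters, strand and counting, the settings were not given in the sources read. Summed RPKM ran from 358132.9 to 382549.7 per library. Depth was estimated from the step of 1 read in RPKM times length among genes with 1 annotated transcript. Of 4852 to 5188 genes with 1 to 10 reads, 72.2% to 73.4% lay within 0.05 of a whole read, so reads were not recovered per gene. A 1 kb gene with 3 reads would have 0.086 to 0.098 RPKM, a limit for counting error only. Positions come from GENCODE M21 (GRCm38), in which 96.6% of symbols were found.

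The members and lists were chosen with earlier results of these data known. Groups came from sample titles. The 12167 genes averaging 1 RPKM or more were fitted as log2(RPKM + 1) with limma 3.58.1 in R 4.3.3, with 4 group means, 12 libraries, a trended empirical Bayes step and Benjamini-Hochberg adjustment over all genes of a contrast. Calls needed an adjusted p below 0.05, and genes counted as rising or falling are called genes. The pseudocount understates changes of low genes, and ratios of mean RPKM stand beside them. The PBS level chose the members, so contrasts with PBS are described for them without a test. Genes named are the members, the 6 nearest Ptprc in pattern, up to 3 called members of a list per contrast and direction by moderated t, the 3 most abundant markers of a list, and counts of 5 or fewer, with other genes named as chosen afterwards. Of 182 list genes tested for an interaction of CpG1668 and Dox, limma called 0. Of these, 5 (Evi2a, F13a1, Lyz2, Ms4a6c and Ucp2) had an unadjusted p under 0.05. Over all 12167 genes limma also called 0, and 812 had an unadjusted p under 0.05, a larger share. Symbols of 3 list genes (Lilrb4b, Ahsp, Madcam1) were not matched. The fit was tested on simulated data before use. Alternatives covered the pseudocount, the filter, scaling, the trend, the groups fitted, a replicate block and each library left out. One gene of the CD45 signalling list is not reported here by name.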

Additional observations from a re-analysis of the deposited data

How the results depend on the processing

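Ptprc kept its direction and its side of the threshold in the 3 contrasts of treated groups under every alternative in which it was tested. Without single libraries its change was 0.58 to 0.78 in CpG1668+Dox against CpG1668, 0.73 to 0.93 against Dox and 0.06 to 0.23 in CpG1668 against Dox. With the replicate block its adjusted p was 0.019, 0.0045 and 0.604, and it cannot be fitted at a mean RPKM of at least 5. No pairing of the libraries by replicate number was seen, though so few libraries a group cannot exclude one. Same-numbered libraries of different groups had correlations of deviations of -0.21 to 0.27, over 0.1 in 2 of 18 pairs, and the best match was the same number in 5 of 18.

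Members called numbered 4 to 6, 4 and 0 without single libraries. With a mean RPKM of at least 5, which drops Ptprc, Lsp1 and Cd37, 3 and 2 were called in CpG1668+Dox against CpG1668 and against Dox. Counts of other leucocyte genes depended more on the settings. Without a filter there were 7 in CpG1668+Dox against Dox, 0 in CpG1668 against Dox and 2 in Dox against PBS. A mean of at least 5 gave 7 in CpG1668+Dox against Dox and 0 in CpG1668 against Dox. Fits of only the 2 groups gave 3, 0 and 2 in CpG1668+Dox against Dox, CpG1668 against Dox and Dox against PBS. Between CpG1668 and Dox, a pseudocount of 0.1 and the replicate block gave 1 each. In Dox against PBS, quantile normalization gave 4, no trend 5 and the replicate block 5.

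Leaving out single libraries gave 4 to 11 other leucocyte genes in CpG1668+Dox against CpG1668 (5 without CpG1668+Dox 1, CpG1668+Dox 3 or CpG1668 3, and 4 without CpG1668 1). Against Dox the count was 4 to 13 (4 without CpG1668+Dox 1 or 3, 5 without Dox 1, and 7 without CpG1668 1, CpG1668 2, Dox 2 or Dox 3). Between CpG1668 and Dox it was 0 to 2 (0 without CpG1668 1, CpG1668 2 or Dox 3, and 1 without CpG1668+Dox 1, CpG1668 3, Dox 1 or PBS 3). In CpG1668+Dox against PBS it was 17 to 24, and in CpG1668 against PBS 4 to 8 (4 without CpG1668 1 or PBS 1). In Dox against PBS it was 1 to 9 (1 without Dox 2, 2 without Dox 3, 3 without PBS 1 or PBS 3, 4 without PBS 2, and 5 without CpG1668+Dox 1 or any CpG1668 library).

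Over all genes, leaving out single libraries gave 133 to 459 calls in CpG1668+Dox against CpG1668 (397 with all), 258 to 429 against Dox (423) and 33 to 236 in CpG1668 against Dox (190). It gave 1363 to 1906 in CpG1668+Dox against PBS (1890), 367 to 762 in CpG1668 against PBS (716) and 313 to 774 in Dox against PBS (728). A mean of at least 5 gave 185, 180, 1155, 455 and 382 calls in CpG1668+Dox against CpG1668, Dox and PBS, CpG1668 against PBS and Dox against PBS. No filter gave 658 in CpG1668+Dox against Dox, 102 in CpG1668 against Dox and 434 in Dox against PBS. Fits of only the 2 groups gave 257, 216, 72 and 355 in CpG1668+Dox against CpG1668 and Dox, CpG1668 against Dox and Dox against PBS, and the replicate block gave 78 in CpG1668 against Dox. Quantile normalization moved the share of higher calls from 58.8% to 42.1% in CpG1668+Dox against PBS, from 65.9% to 51.5% in Dox against PBS, from 94.0% to 82.3% in CpG1668+Dox against CpG1668 and from 22.6% to 35.3% in CpG1668 against Dox, where median-of-ratios scaling gave 36.4%. Between CpG1668 and Dox, uncalled changes near 0 turned round. Laptm5 was at 0.0017 with median-of-ratios scaling and 0.012 and 0.0033 without CpG1668 1 and Dox 3, in a range of -0.074 to 0.012 without single libraries. Coro1a was at 0.0031 with that scaling and 0.011 and 0.015 without CpG1668 1 and Dox 2, in a range of -0.062 to 0.015. Cd53 was at -0.028 without Dox 1, in a range of -0.028 to 0.28. The Cd53 call in CpG1668+Dox against CpG1668 had an adjusted p of 0.055 with a pseudocount of 0.1 and 0.089 without a filter. Causes were not tested.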
